A study of Mus musculus with 9 samples.

Results

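Branched-chain amino acid and propionate catabolism is represented by 29 genes, listed by name for their place in the pathway, out of 32285 genes in the count tables. All 29 were matched to 1 Ensembl identifier each, and all 29 were among the 17173 genes that passed the filter on low counts. They were sorted into 8 genes of the steps that the 3 amino acids share, 5 of the leucine branch, 4 of the isoleucine branch, 5 of the valine branch and 7 of the propionate branch. The RNAseq libraries were made from primary stromal vascular fraction (SVF) cells of subcutaneous white adipose tissue from wild-type mice 4 to 6 days old. These cells are what is left of adipose tissue without its mature adipocytes, preadipocytes among them, and they were not sorted. There were 3 libraries of undifferentiated SVF cells, 3 of cells after 6 days of differentiation in DMSO (vehicle) and 3 after 6 days in mizoribine (MIZ), an inhibitor of the guanine nucleotide enzyme IMPDH, and 25 µM is the MIZ dose that a legend of the study gives. Both differentiated groups received insulin, dexamethasone and IBMX to induce adipogenesis, and then insulin, T3 and the PPARγ agonists troglitazone and rosiglitazone. By the study's methods, cells grew in DMEM before induction, and both later media were based on DMEM/F12. No day of collection is given for undifferentiated cells. In comparisons with them, medium, additives and time in culture cannot be told apart from differentiation. The study describes its RNAseq data as coming from biological replicates and plated the cells of individual animals separately, while the labels do not tie a library to an animal.

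Leucine, isoleucine and valine are first transaminated to branched-chain keto acids, by BCAT1 in the cytosol or BCAT2 in mitochondria. The branched-chain keto acid dehydrogenase (BCKDH) complex then commits the carbon skeletons to oxidation in the mitochondrial matrix, and separate enzymes carry leucine to acetyl-CoA and acetoacetate, isoleucine to acetyl-CoA and propionyl-CoA, and valine to propionyl-CoA, which is carboxylated and rearranged to succinyl-CoA. Differentiated adipocytes are known for a high rate of this catabolism, which supplies acetyl-CoA and propionyl-CoA for lipid synthesis.

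Libraries held 28760721 to 55288455 counts. Levels are in CPM, counts scaled to a common library size after TMM normalization, and the least covered member had 708 counts over the 3 libraries of a group. The coefficient of variation that counting alone gives a library was 1.13% to 5.08% over the members in undifferentiated, 0.782% to 3.34% in vehicle and 1.74% to 6.51% in MIZ cells, and it exceeded the spread seen between libraries for 12, 6 and 6 of the 29 members. Differences were tested with edgeR's quasi-likelihood test over all genes, and a gene is called higher or lower where its Benjamini-Hochberg adjusted p was under 0.05. Adipocyte markers (10 genes) summed to 674 to 763 CPM in undifferentiated, 22279 to 23260 CPM in vehicle and 2539 to 2991 CPM in MIZ libraries. Lpl, with means of 673, 5941 and 1235 CPM, made up most of the sum in undifferentiated cells and was its largest part with MIZ. GEO's label calls every sample adipocytes, but Cidec was at 0 in undifferentiated cells and at 1705 and 199 CPM with vehicle and MIZ. Lep was at or near 0 in every group and was not tested. All 9 adipocyte markers tested lay, with MIZ, below vehicle and above undifferentiated cells (edgeR). Preadipocyte and stromal markers (8 genes) summed to 14622 to 15914, 3510 to 4197 and 5681 to 7377 CPM in the same order of groups. Most of each sum was the collagen gene Col1a1, with means of 13866, 3395 and 5698 CPM. In this list 3 markers were higher with MIZ than with vehicle, and 1, Cd34 (1.38 CPM with vehicle and 0.681 CPM with MIZ), was lower. Mural and smooth muscle markers (6 genes) summed to 791 to 890, 189 to 210 and 3809 to 5113 CPM, with Acta2 at a mean of 3622 CPM with MIZ. Of these 4 were higher and 1, Cspg4 (63.3 and 12.5 CPM), lower with MIZ than with vehicle. Macrophage and leukocyte markers (7 genes, Cd3e at 0 in every library) summed to 3431 to 3539, 399 to 744 and 846 to 1171 CPM. Adgre1 and Lyz2 were higher with MIZ than with vehicle, and Ptprc, Cd68 and Csf1r did not pass (median log2 fold change of the 5 tested -0.13). Endothelial markers (6 genes) summed to 79.1 to 101 CPM in undifferentiated libraries and at most 10.3 CPM elsewhere (3 lower with MIZ than with vehicle), mesothelial markers (5 genes) to at most 16.6 CPM, Schwann and neural markers (4 genes) to at most 37.6 CPM and skeletal muscle markers (6 genes, Myf5 and Pax7 at 0) to at most 61.9 CPM. The part of these cell types in the differences given here was not tested. In bulk RNA, fewer cells of a type and less RNA per cell cannot be told apart.

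Genes of the pathway were higher after differentiation with vehicle, and all but 1 of them were lower with MIZ than with vehicle. After differentiation with vehicle 28 of the 29 genes were higher than in undifferentiated cells (25 of them over 2-fold) and 0 were lower (edgeR, also 0 at an unadjusted p under 0.05 and 0 by DESeq2), with a median log2 fold change of 2.10 against -0.08 over all genes tested. The exception was Bcat1 (unadjusted p = 0.216, adjusted p = 0.249). Among all genes tested in this comparison, 36.2% were called higher and 41.5% lower, and 17.2% were higher and 24.0% lower by over 2-fold. With MIZ, 28 of the 29 genes fell below vehicle (26 by over 2-fold) and 1, Bcat1, was higher, with a median of -2.08 against 0.02 over all genes tested, where 35.1% were called lower and 35.9% higher, and 16.8% were lower and 16.2% higher by over 2-fold. MIZ libraries did not overlap with vehicle libraries for any of the 29 genes, against 72.8% of all genes tested. Vehicle and undifferentiated libraries did not overlap for 28 of the 29, against 80.7%. The 2 comparisons share the vehicle libraries, so their opposite signs are not separate evidence. Together the 29 genes took 0.0995% to 0.102% of all counts in undifferentiated, 0.410% to 0.447% in vehicle and 0.104% to 0.109% in MIZ libraries. Mitochondrially encoded genes took 0.837% to 0.891% of counts in undifferentiated, 3.82% to 5.002% in vehicle and 0.686% to 0.836% in MIZ libraries.

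**Figure D1:**
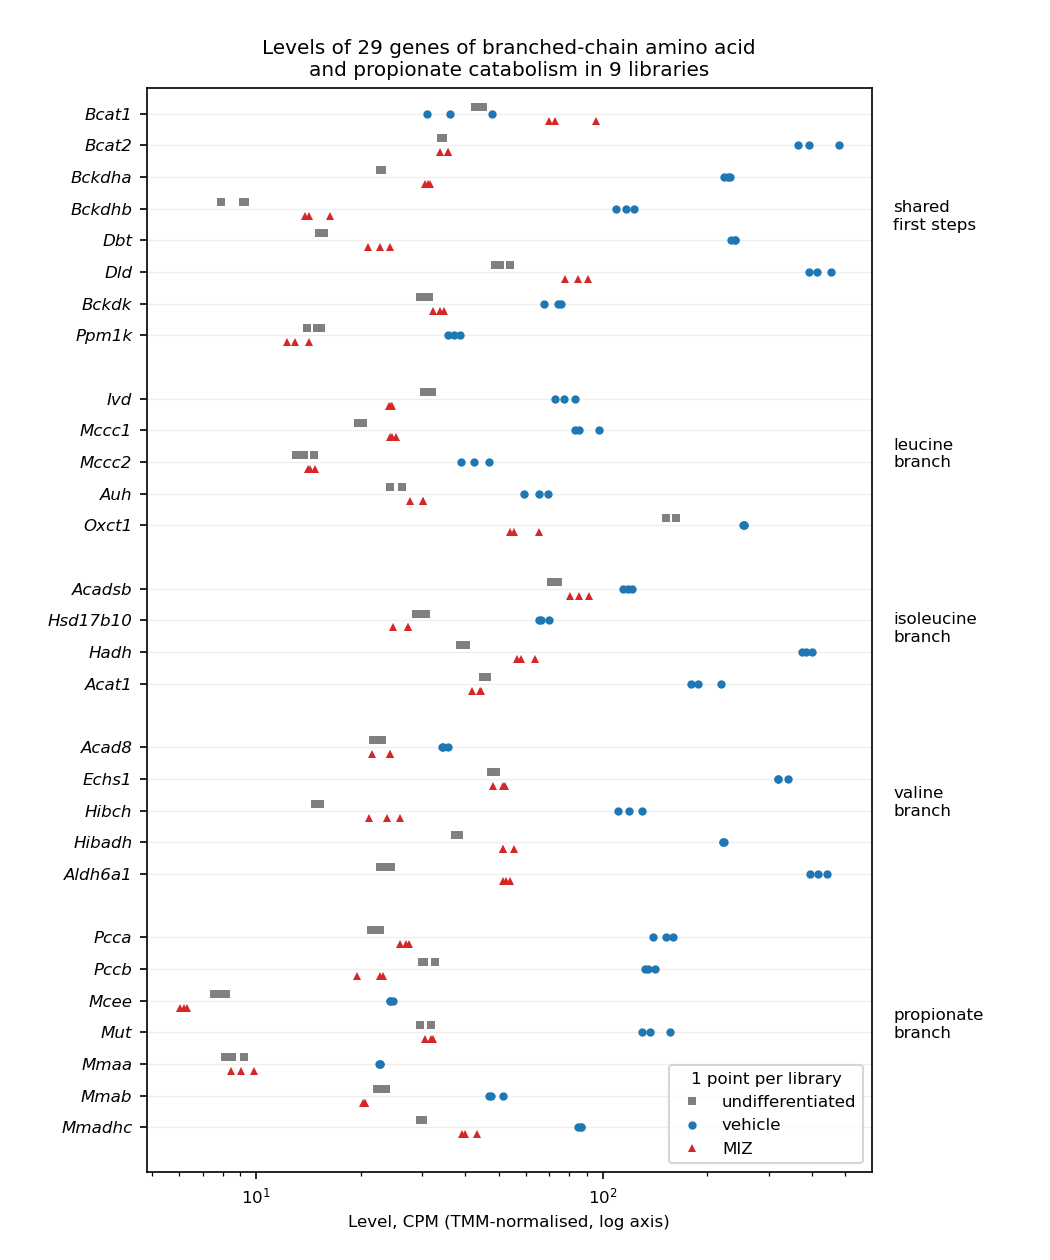
Levels of the 29 genes in CPM on a log axis, with 1 point per library for undifferentiated (grey squares), vehicle (blue circles) and MIZ cells (red triangles), by branch. For every gene except Bcat1 the 3 vehicle libraries lie to the right of all other libraries, and for Bcat1 the 3 MIZ libraries do.

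**Figure D2:**
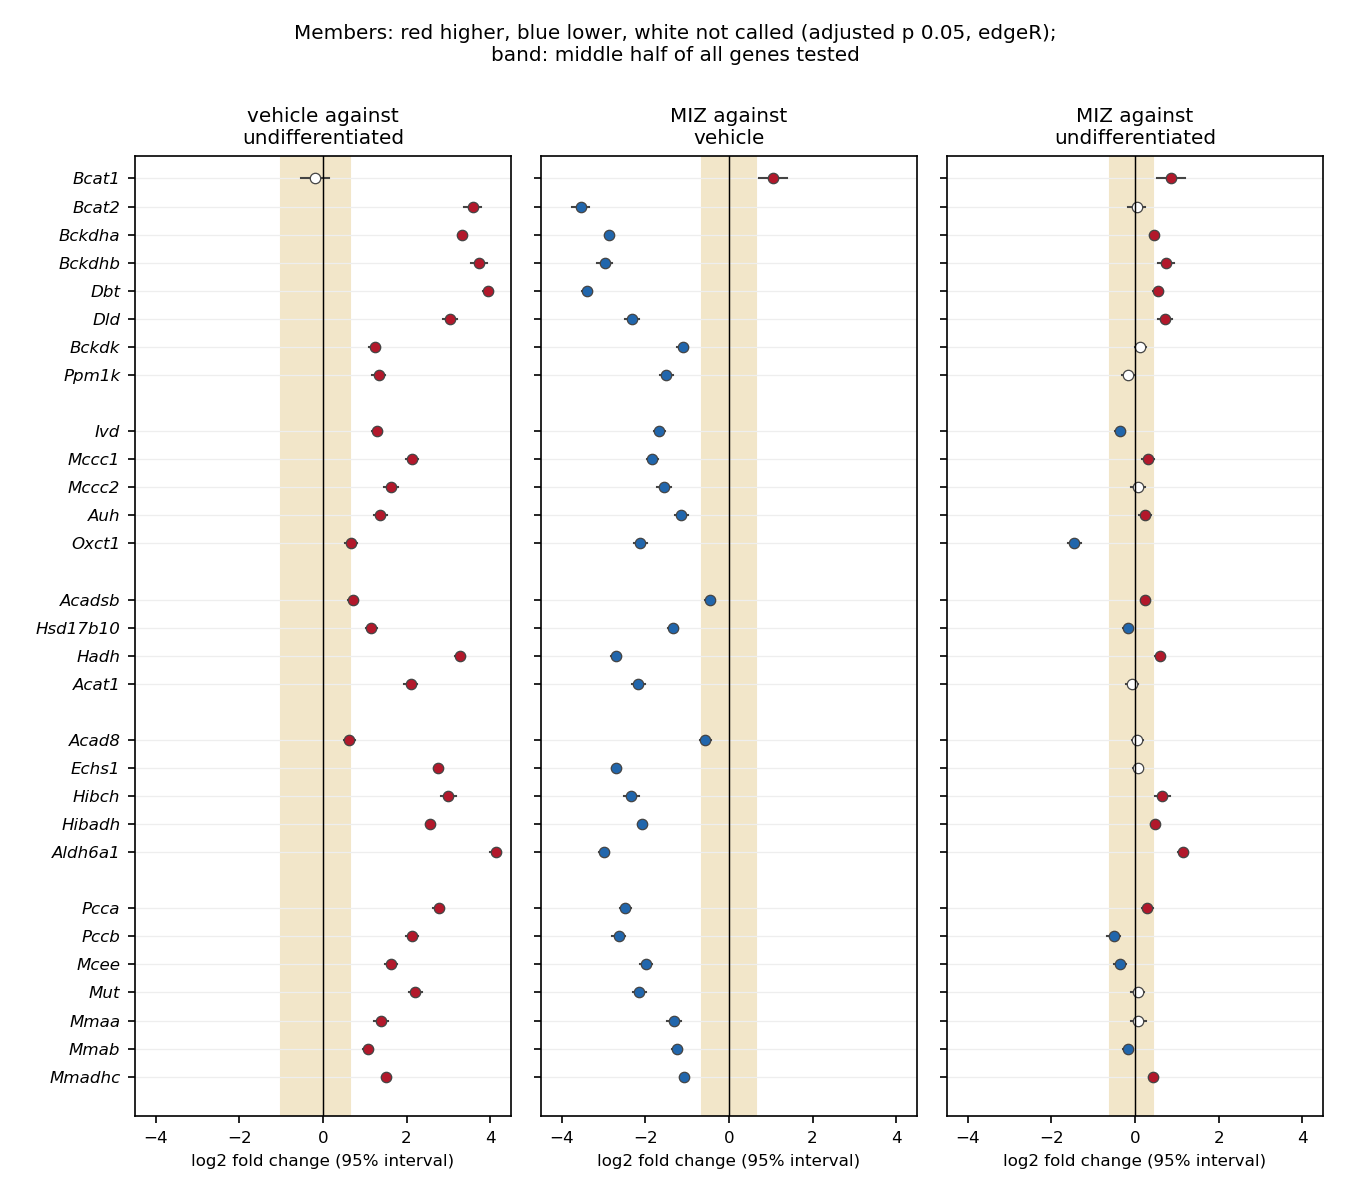
Log2 fold changes of the 29 genes in the 3 comparisons, with 95% intervals from edgeR, and a band from the lower to the upper quartile of all genes tested. Vehicle against undifferentiated cells lies above 0 for 28 genes, MIZ against vehicle lies left of the band for 26, and most values for MIZ against undifferentiated cells lie in the band.

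The genes of the 2 transaminases moved in opposite directions with MIZ. Bcat2 (chr7:45570153-45589711, plus strand, GRCm38), which encodes the mitochondrial enzyme, was at 34.1, 34.6 and 34.1 CPM in undifferentiated cells, 478, 394 and 364 CPM with vehicle and 35.8, 33.9 and 35.7 CPM with MIZ. The MIZ libraries overlapped with the undifferentiated ones and lay far below every vehicle library. The log2 fold change of Bcat2 with MIZ was -3.55 (standard error 0.0923, adjusted p = 1.01e-10, edgeR), the largest of the 29, and against undifferentiated cells it was 0.04 with a 95% interval of -0.16 to 0.23 (adjusted p = 0.725, edgeR).
Bcat1 (chr6:144993835-145076184, minus strand), which encodes the cytosolic enzyme, was at 43.4, 45.2 and 42.8 CPM in undifferentiated cells, 48.0, 36.1 and 31.0 CPM with vehicle and 72.5, 69.6 and 95.4 CPM with MIZ. The undifferentiated and vehicle libraries overlapped, and the MIZ libraries were above both. Its log2 fold change with MIZ was 1.05 against vehicle (standard error 0.152, adjusted p = 8.47e-05, edgeR) and 0.85 against undifferentiated cells (standard error 0.149, adjusted p = 0.000427, edgeR). Between vehicle and undifferentiated cells it was -0.20 with a 95% interval of -0.53 to 0.14, and without vehicle replicate 1 it was -0.37 and called lower (adjusted p = 0.0111, edgeR). Per kb of transcript, a scale on which genes can be compared, Bcat1 and Bcat2 stood at 17.1 and 19.3 CPM per kb in undifferentiated cells, 15.0 and 232 with vehicle and 31.0 and 19.8 with MIZ. The ratio of Bcat2 to Bcat1 per length was 1.10 to 1.15 in undifferentiated, 14.4 to 16.9 in vehicle and 0.540 to 0.713 in MIZ libraries. With MIZ it was 24.2-fold below vehicle and 1.75-fold below undifferentiated cells, without overlap in either case (exact permutation p = 0.1, two-sided, the smallest that 3 libraries against 3 allow, adjusted p = 0.111 over 21 tests).

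**Figure D3:**
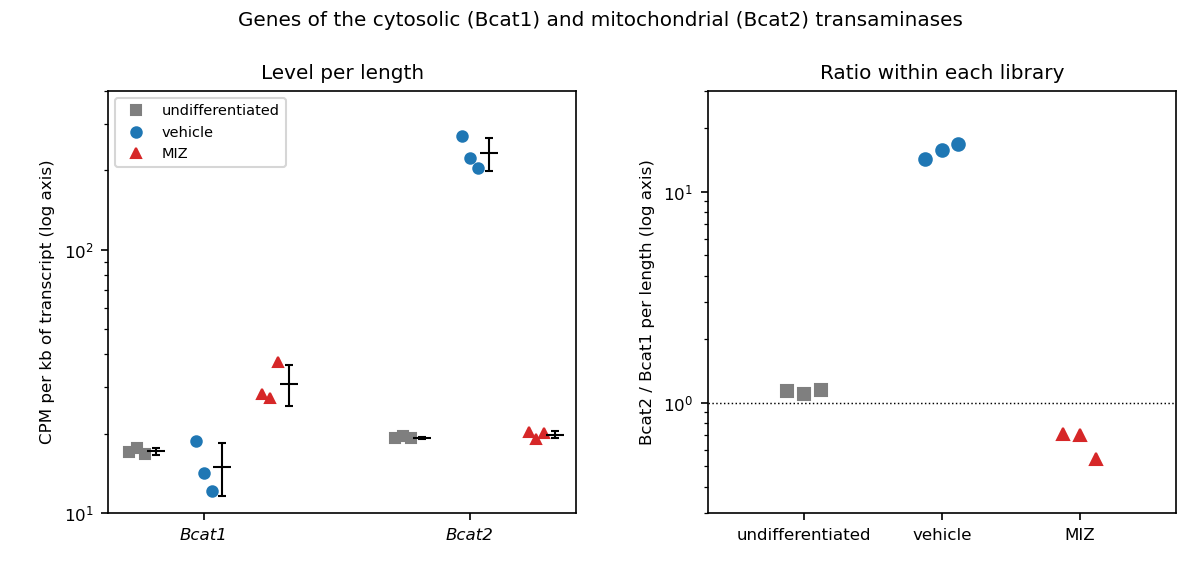
Bcat1 and Bcat2 in CPM per kb of transcript (left, log axis, with mean and SD beside the 3 libraries of each group) and the ratio of Bcat2 to Bcat1 per length in each library (right, log axis, dotted line at 1). The ratio lies above 14 in the vehicle libraries, just above 1 in undifferentiated ones and below 1 with MIZ.

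The subunits of the BCKDH complex fell with MIZ more than the genes of its kinase and phosphatase. Dbt, which encodes the transacylase core of the complex, was at 15.2, 15.6 and 15.6 CPM in undifferentiated cells, 240, 240 and 234 CPM with vehicle and 21.1, 22.7 and 24.3 CPM with MIZ. Against vehicle it changed by -3.39 on the log2 scale (standard error 0.0554, adjusted p = 1.47e-11, edgeR). Bckdha and Bckdhb, which encode the decarboxylase subunits, changed by -2.87 (standard error 0.0411) and -2.98 (standard error 0.0825). Bckdha was at 22.7, 22.8 and 23.1 CPM in undifferentiated cells, 229, 233 and 223 CPM with vehicle and 31.8, 31.3 and 30.7 CPM with MIZ. Dld, whose dihydrolipoamide dehydrogenase serves the pyruvate and 2-oxoglutarate complexes and the glycine cleavage system as well, changed by -2.32 (standard error 0.0735), from 392 to 453 CPM with vehicle to 77.5 to 90.7 CPM with MIZ. In these 4 genes the MIZ libraries were above every undifferentiated library, by log2 fold changes of 0.45 (Bckdha) to 0.75 (Bckdhb), and all 4 passed the edgeR test.
Bckdk, which encodes the kinase that inactivates the complex, was at 31.5, 31.3 and 29.6 CPM in undifferentiated cells, 67.6, 75.7 and 74.4 CPM with vehicle and 33.8, 32.3 and 34.8 CPM with MIZ (log2 fold change -1.11 against vehicle, standard error 0.0565). Ppm1k, which encodes the phosphatase that reactivates it, was at 14.9, 15.3 and 14.01 CPM, 38.6, 37.2 and 35.6 CPM and 14.2, 12.9 and 12.2 CPM (-1.50, standard error 0.0688). MIZ libraries were near the undifferentiated ones for both: Bckdk differed by 0.13 (95% interval 0.00 to 0.25, adjusted p = 0.0698, edgeR) and Ppm1k by -0.17 (-0.32 to -0.01, adjusted p = 0.0536, edgeR), and each passed under some other settings. Within libraries, Bckdk stood at 0.165 to 0.186 of Bckdha per length with vehicle, 0.575 to 0.633 with MIZ and 0.716 to 0.773 in undifferentiated cells, with no overlap between groups (exact permutation p = 0.1, adjusted p = 0.111). Bckdk to Ppm1k per length was 2.86 to 3.41 with vehicle and 3.89 to 4.64 with MIZ. Dbt to Dld per length was 0.409 to 0.459 with vehicle, 0.206 to 0.210 with MIZ and 0.222 to 0.246 in undifferentiated cells. Bckdha to Bckdhb overlapped between MIZ and vehicle (exact permutation p = 0.4, adjusted p = 0.4), at 1.46 to 1.78 and 1.41 to 1.63.

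In the leucine branch all 5 genes were lower with MIZ than with vehicle, with a median log2 fold change of -1.67. Oxct1, whose CoA transferase activates acetoacetate for use as fuel, was at 152, 162 and 162 CPM in undifferentiated cells, 254, 253 and 255 CPM with vehicle and 53.9, 55.2 and 65.3 CPM with MIZ. Its MIZ libraries lay below both other groups, with log2 fold changes of -2.13 against vehicle (standard error 0.0696, adjusted p = 4.57e-10, edgeR) and -1.45 against undifferentiated cells (standard error 0.0684, adjusted p = 1.96e-08, edgeR). Ivd, which encodes the isovaleryl-CoA dehydrogenase that opens the branch, was also below both, at 30.5 to 32.1 CPM in undifferentiated cells, 72.5 to 82.8 CPM with vehicle and 24.2 to 24.6 CPM with MIZ (-1.67 against vehicle and -0.37 against undifferentiated cells). Mccc1 and Mccc2 encode the 2 subunits of the biotin-dependent methylcrotonyl-CoA carboxylase. They changed by -1.83 and -1.57 against vehicle. Against undifferentiated cells, Mccc1 was higher (0.30, adjusted p = 0.00144, edgeR) and Mccc2 differed by 0.07 (95% interval -0.10 to 0.24, adjusted p = 0.467, edgeR). Auh, which encodes a methylglutaconyl-CoA hydratase, changed by -1.14, from 59.1 to 69.4 CPM with vehicle to 27.8 to 30.2 CPM with MIZ.

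The isoleucine branch as listed held both deep and shallow changes. Hadh, a 3-hydroxyacyl-CoA dehydrogenase gene of fatty acid oxidation that was listed in this branch, was at 38.6, 39.7 and 40.2 CPM in undifferentiated cells, 400, 384 and 375 CPM with vehicle and 56.4, 58.1 and 63.5 CPM with MIZ (log2 fold change -2.70 against vehicle, standard error 0.0538). Its fall is therefore not one of a step particular to isoleucine. Acadsb, which encodes the acyl-CoA dehydrogenase that acts on the isoleucine skeleton, was at 74.1, 70.9 and 70.8 CPM, 118, 121 and 114 CPM and 91.1, 85.2 and 80.1 CPM, a change of -0.46 (standard error 0.0521, adjusted p = 1.18e-05, edgeR), the smallest fall of the 28. Its MIZ libraries lay between the other groups without overlap. Acat1, whose thiolase splits the last intermediate into acetyl-CoA and propionyl-CoA, changed by -2.17 to 41.8 to 44.5 CPM, and differed from undifferentiated cells by -0.07 (95% interval -0.22 to 0.08). Hsd17b10, which encodes a dehydrogenase of the branch that is also a subunit of mitochondrial RNase P, changed by -1.33 against vehicle. It was -0.17 against undifferentiated cells (adjusted p = 0.0187, edgeR), a call lost with DESeq2 (-0.15, adjusted p = 0.0535) and without undifferentiated replicate 1 (-0.15), undifferentiated replicate 3 (-0.17) or MIZ replicate 2 (-0.13).

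The valine branch held the single gene with the largest rise on differentiation, Aldh6a1, and also a gene that changed little, Acad8. Aldh6a1 (chr12:84430717-84451004, minus strand), which encodes methylmalonate semialdehyde dehydrogenase at the end of the branch, was at 24.5, 22.8 and 23.8 CPM in undifferentiated cells, 442, 416 and 394 CPM with vehicle and 51.4, 53.9 and 52.5 CPM with MIZ. It was 17.6-fold higher with vehicle than in undifferentiated cells, the largest rise of the 29, changed by -2.99 with MIZ on the log2 scale (standard error 0.0544, adjusted p = 2.24e-11, edgeR), and was the only member over 2-fold higher with MIZ than in undifferentiated cells (1.15, standard error 0.0535, adjusted p = 1.78e-08, edgeR). Echs1, an enoyl-CoA hydratase gene shared with fatty acid oxidation, changed by -2.69 against vehicle, from 320 to 342 CPM to 48.0 to 52.0 CPM, and by 0.07 against undifferentiated cells (95% interval -0.04 to 0.17). Hibch and Hibadh, whose products release 3-hydroxyisobutyrate from CoA and oxidize it, changed by -2.34 and -2.08 against vehicle and were above undifferentiated cells by 0.66 and 0.48. Acad8, which encodes isobutyryl-CoA dehydrogenase, was at 23.0, 21.7 and 22.9 CPM, 35.7, 34.6 and 34.2 CPM and 24.3, 24.3 and 21.5 CPM, a change of -0.57 against vehicle (standard error 0.0594, adjusted p = 5.85e-06, edgeR). Acadsb and Acad8, both acyl-CoA dehydrogenase genes, were the members that fell by less than 2-fold, and Ivd, the third acyl-CoA dehydrogenase gene among the 29, fell 3.17-fold.

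In the propionate branch all 7 genes fell over 2-fold, the carboxylase genes most. Pcca, which encodes the biotin-bearing subunit of propionyl-CoA carboxylase, was at 21.4, 22.7 and 21.9 CPM in undifferentiated cells, 159, 152 and 139 CPM with vehicle and 25.9, 27.1 and 27.6 CPM with MIZ (log2 fold change -2.48, standard error 0.0586). Pccb, which encodes the other subunit, was at 30.5, 32.7 and 29.99 CPM, 141, 134 and 132 CPM and 22.7, 19.5 and 23.3 CPM (-2.64, standard error 0.0698). Against undifferentiated cells the subunits differed in direction, with Pcca higher by 0.29 (adjusted p = 0.00114, edgeR) and Pccb lower (-0.51, adjusted p = 6.00e-05, edgeR). Pcca to Pccb per length was 0.621 to 0.653 in undifferentiated, 0.941 to 1.01 in vehicle and 1.02 to 1.24 in MIZ libraries (exact permutation p = 0.1, adjusted p = 0.111, for each pair of groups). Ggact, which overlaps Pcca on the opposite strand, reached 56.7% of the Pcca counts in undifferentiated and 32.4% in MIZ libraries. Its part in these differences was not tested. Mcee, which encodes methylmalonyl-CoA epimerase, was the lowest member in MIZ libraries at 6.03 to 6.33 CPM, below 7.57 to 8.18 CPM in undifferentiated and 24.3 to 24.7 CPM in vehicle libraries. Mut, which encodes the cobalamin-dependent mutase that makes succinyl-CoA, changed by -2.15 against vehicle, from 129 to 156 CPM to 30.7 to 32.4 CPM, and differed from undifferentiated cells by 0.06 (95% interval -0.09 to 0.21).
Mmaa, Mmab and Mmadhc, whose products deliver and convert the cobalamin that the mutase uses, changed by -1.32, -1.25 and -1.08 against vehicle, in each case less than Mut. Mmadhc was above undifferentiated cells (39.1 to 43.2 against 29.7 to 30.3 CPM), Mmab below them (20.3 to 20.6 against 22.4 to 23.7 CPM) and Mmaa overlapped with them (8.45 to 9.85 against 8.11 to 9.20 CPM).

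The level left with MIZ ranged from 8.54% of the vehicle mean for Bcat2, 9.52% for Dbt, 12.6% for Aldh6a1, 12.7% for Bckdhb and 13.7% for Bckdha to 67.1% for Acad8 and 72.5% for Acadsb, with Bcat1 at 206%. Per kb of transcript the highest members with vehicle were Bcat2 at 232, Hadh at 216, Echs1 at 210 and Dld at 165 CPM per kb, of which Hadh, Dld and Echs1, at 33.2, 33.1 and 32.5 CPM per kb, led with MIZ and Oxct1, at 45.0, led in undifferentiated cells. Bcat1 stood next with MIZ at 31.0 (SD 5.53). The means of these 4 genes differed by less than that SD, so neither their order nor which of them led is resolved. The median coefficient of variation between libraries of a group was 3.03% in undifferentiated, 5.18% in vehicle and 4.73% in MIZ cells, and Bcat1 had the largest with vehicle (22.7%) and with MIZ (17.8%).

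Against undifferentiated cells, MIZ-treated cells had 14 members higher (1 over 2-fold), 6 lower (1 over 2-fold) and 9 that did not pass, with a median log2 fold change of 0.13 against -0.00 over all genes tested. Of all genes tested, 33.7% were called higher and 33.3% lower, and 9.88% were higher and 16.5% lower by over 2-fold. MIZ and undifferentiated libraries did not overlap for 22 of the 29 members, against 74.4% of all genes tested. The shared steps had 5 higher and 0 lower of 8 (median 0.50), the valine branch 3 and 0 of 5 (0.48), the isoleucine branch 2 and 1 of 4 (0.09), the leucine branch 2 and 2 of 5 (0.07) and the propionate branch 2 and 3 of 7 (0.06). The 6 lower members were Ivd, Oxct1, Hsd17b10, Pccb, Mcee and Mmab.

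The 250 bases before the start of each gene were read from RefSeq windows (GRCm38.p6) and found for 25 of the 29 members, all but Dbt, Acat1, Mut and Mmadhc. For these members the RefSeq start lay at most 220 bases (Bckdha) from the GENCODE start. The windows of Bcat2 and Bcat1 are shown because their genes moved in opposite directions, that of Aldh6a1 for the largest rise on differentiation and that of Bckdhb as a subunit gene holding several of the motifs searched. Each reads 5′ to 3′ on the gene's own strand and ends at the base before the RefSeq start, capitals mark matches, on either strand, to the CCAAT box, the GC box (spelled GGGCGG) and the core of nuclear receptor sites (spelled AGGTCA), and 27 bases at the end of the Bcat1 window lie within the gene as GENCODE draws it.
Bcat2, chr7:45569903-45570152, plus strand: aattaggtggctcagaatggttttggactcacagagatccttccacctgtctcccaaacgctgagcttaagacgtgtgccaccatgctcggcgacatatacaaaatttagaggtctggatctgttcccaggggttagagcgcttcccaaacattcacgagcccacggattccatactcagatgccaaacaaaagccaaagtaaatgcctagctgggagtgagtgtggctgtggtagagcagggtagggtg
Bcat1, chr6:145076158-145076407, minus strand: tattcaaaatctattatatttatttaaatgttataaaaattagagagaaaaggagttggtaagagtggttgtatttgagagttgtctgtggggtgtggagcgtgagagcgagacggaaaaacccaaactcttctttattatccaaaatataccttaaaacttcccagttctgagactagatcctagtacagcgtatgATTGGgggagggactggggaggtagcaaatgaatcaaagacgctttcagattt
Aldh6a1, chr12:84451025-84451274, minus strand: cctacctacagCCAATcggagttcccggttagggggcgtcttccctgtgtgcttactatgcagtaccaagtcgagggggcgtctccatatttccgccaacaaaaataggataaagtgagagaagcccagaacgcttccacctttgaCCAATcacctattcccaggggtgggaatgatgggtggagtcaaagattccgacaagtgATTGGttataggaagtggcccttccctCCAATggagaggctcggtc
Bckdhb, chr9:83924887-83925136, plus strand: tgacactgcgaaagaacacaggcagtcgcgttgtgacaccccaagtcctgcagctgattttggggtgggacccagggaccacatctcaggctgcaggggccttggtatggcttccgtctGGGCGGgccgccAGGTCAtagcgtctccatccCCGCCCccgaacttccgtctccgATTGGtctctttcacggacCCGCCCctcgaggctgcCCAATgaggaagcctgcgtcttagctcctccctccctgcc
The CCAAT box was in 16 of the 25 member windows (64.0%) and in 33.8% of all 32851 windows, and the GC box in 15 (60.0%) against 32.7%. The 32851 windows were not limited to genes tested here, while all members were tested, so these shares are not set against expressed genes. The nuclear receptor core AGGTCA was in 3 (12%, Bckdhb, Ppm1k and Echs1) against 14%. A longer form of it, AAGGTCA, which contains that core, was in 0 against 4.08%. The E-box CACGTG was in 1 (4%, Mccc2) against 6.02% and the NRF1 core GCGCATGC in 1 (4%, Pccb) against 2.26%. The Bcat2 window held no match to these letters, the Bcat1 window 1 CCAAT and the Aldh6a1 window 4. The median GC content was 57.6% for the member windows and 52.4% for all windows. A match is a description of these letters and not of binding.

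Genes around the pathway were counted in 9 lists, to be read against the 35.1% of all genes tested that were lower and the 35.9% that were higher with MIZ than with vehicle. Of 18 other enzymes of branched-chain amino acid and propionyl-CoA breakdown, 14 were lower and 2 higher with MIZ than with vehicle (median log2 fold change -1.82). Acadm, which encodes the medium-chain acyl-CoA dehydrogenase, changed by -3.39 (standard error 0.097) and Acaa2, a thiolase gene, by -3.34 (standard error 0.0922), while Abat, which encodes 4-aminobutyrate transaminase, rose by 0.56 (standard error 0.0679). Bdh1, which encodes a ketone body dehydrogenase and had under 5 CPM, was the other that rose (1.35). All 6 genes of succinyl-CoA ligase and electron transfer flavoprotein fell (median -2.34), among them Etfa (-2.98) and Etfdh (-2.77), which take electrons from the acyl-CoA dehydrogenases to ubiquinone. All 16 genes tested in the lists for biotin use and for lipoate fell too. The 6 for biotin use, which include biotin-dependent carboxylases of other pathways, had a median of -1.71. Among those carboxylases were Acacb, an acetyl-CoA carboxylase gene, at -5.37 and Pcx, which encodes pyruvate carboxylase, at -2.80. Hlcs, Btd and Slc5a6, which encode no carboxylase, were at 20.1, 27.2 and 20.9 CPM with vehicle and 14.4, 11.0 and 7.33 CPM with MIZ. The 10 for lipoate synthesis and attachment had a median of -1.47, led by Ndufab1, the mitochondrial acyl carrier protein (-2.11), and Lipt1, a lipoyl transferase gene (-1.65).
Of 9 transporters of branched-chain amino acids 4 were lower and 3 higher (median 0.07), shares near those of all genes tested. Slc25a44, which encodes the mitochondrial carrier of these amino acids, was at 115 CPM with vehicle and 35.6 CPM with MIZ (-1.69, standard error 0.0478) and Slc43a1 changed by -1.002. Slc7a7, a cationic amino acid and leucine exchanger gene, rose from 4.27 to 23.5 CPM (2.47, standard error 0.197) and Slc43a2 by 0.33. The third that rose, Slc6a15, was at 0.140 and 0.570 CPM. Slc7a5, which encodes the main leucine exchanger of the plasma membrane, was at 195 and 205 CPM (0.07, 95% interval -0.22 to 0.37). Of 10 genes tested for cobalamin uptake and handling 4 were lower and 3 higher (median -0.18), also near those shares, with Tcn2, the plasma carrier (-0.81), and Mmachc (-0.80) lower and Abcc1 (0.66), Mtr (0.21, methionine synthase) and Cubn (2.44, at 0.346 and 1.90 CPM) higher.
A list of 11 genes tied to the regulation of this catabolism, which also held the transaminase genes Gpt2 and Got2 that are counted again among the transaminases, was lower with MIZ throughout (median -1.87). Ppara changed from 72.2 to 1.71 CPM (-5.40, standard error 0.112) and Mlxipl, which encodes the carbohydrate response factor ChREBP, from 75.9 to 5.44 CPM (-3.81). The list for the related pyruvate and 2-oxoglutarate dehydrogenase complexes also held Dhtkd1 and the glycine cleavage genes Gcsh and Gldc. Of its 16 genes 14 fell (median -2.04), led by the kinase genes Pdk4 (-3.50) and Pdk2 (-3.46), and Pdk3 (1.26) and Pdp1 (0.38) rose. Of 9 glutamate-linked transaminase and related genes 7 fell, 4 of them by over 2-fold, and 2 rose (median -0.60). The largest rise was 2.97, in a gene with a mean under 5 CPM in every group. Gpt, an alanine transaminase gene, changed by -3.42 and Glul, which encodes glutamine synthetase, by -2.22. On differentiation with vehicle, where 36.2% of all genes tested were higher and 41.5% lower, the counts higher and lower were 14 and 4 for the other enzymes, 6 and 0 for succinyl-CoA ligase and electron transfer, 6 and 0 for biotin, 10 and 0 for lipoate, 5 and 4 for transporters, 4 and 2 for cobalamin, 11 and 0 for the regulation list, 14 and 2 for the related complexes and 7 and 2 for the transaminases.

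**Figure D4:**
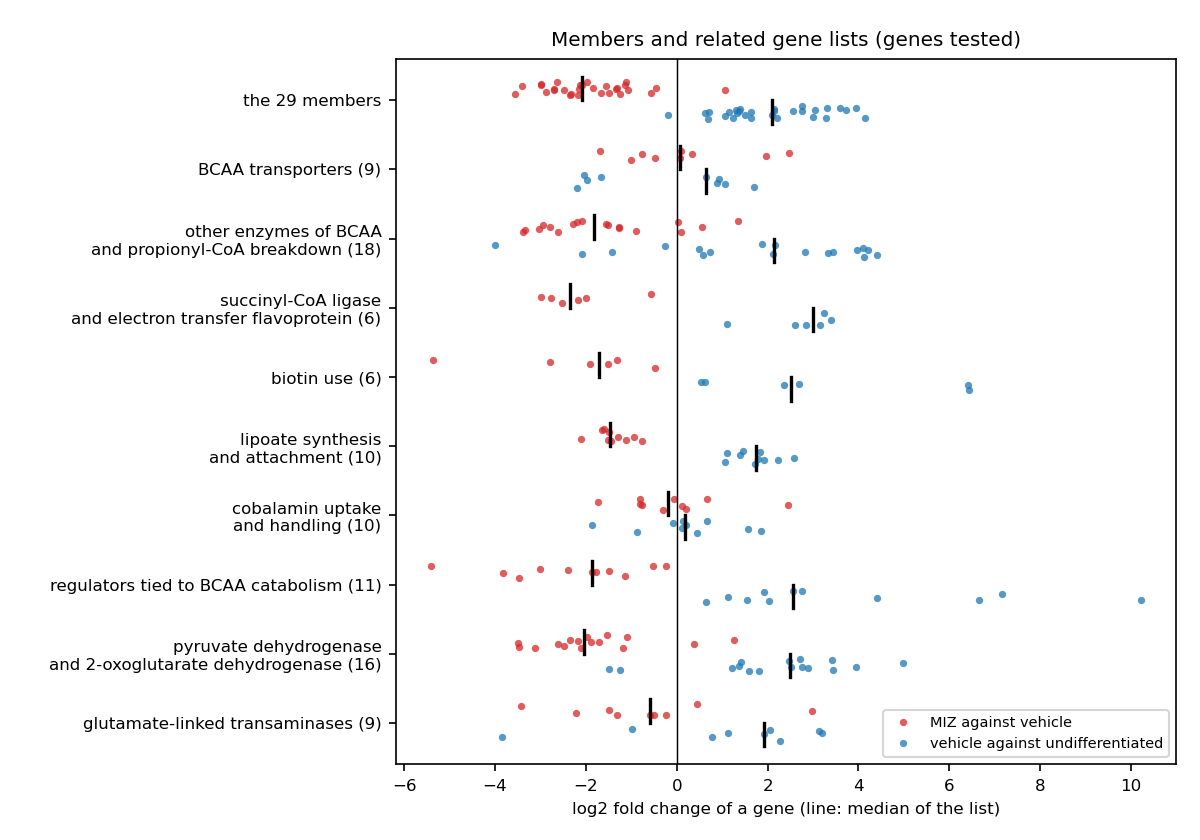
Log2 fold changes of single genes in the 29 members and in 9 related lists, for MIZ against vehicle (red) and vehicle against undifferentiated cells (blue), with black lines at the medians and the number of genes tested in parentheses. The medians with MIZ run from -2.34 for succinyl-CoA ligase and electron transfer to 0.07 for the transporters.

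Exons of 9 members overlap a gene on the opposite strand, and the sources used here do not give the strand setting. Reads of a shared stretch may have been added to a member's counts or left out of them. The overlapping gene had over 10% of the member's own counts in some library for 4 of the 9. It reached 43.9% for Bckdha (B3gnt8), 59.6% for Echs1 (Paox), 56.7% for Pcca (Ggact) and 18.4% for Mut (Cenpq), each in undifferentiated cells, and with vehicle 0.671%, 11.4%, 4.08% and 2.18%. With MIZ the highest was 32.4%, for Pcca. For the other 5, Bcat1, Bcat2, Mccc1, Oxct1 and Aldh6a1, it stayed at or under 6.98%. These percentages compare the counts given to each gene and do not measure shared reads. How far shared reads entered the counts or were left out of them was not tested.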

How the data were processed

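RNA from 9 libraries of mouse SVF cells was depleted of ribosomal RNA, selected for polyA and sequenced as paired reads. By their methods, the authors used Trim Galore 0.6.7 for trimming and STAR for alignment to the GRCm38 (mm10) genome and for counting, and the submitters' processing notes also list HTSeq. What they deposited is a table of raw counts for each library, not normalized. The annotation release and strand setting are not given in the sources used here.

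Samples were grouped by their labels. A gene was kept when 3 or more of the 9 libraries held 5 or more counts of it. Counts were normalized by TMM and fitted once over all 9 libraries with edgeR 4.0.16 (limma 3.58.1, R 4.3.3, quasi-likelihood test, biological coefficient of variation 0.0806), with p-values adjusted over all genes tested in each comparison. Standard errors and 95% intervals come from this fit. DESeq2, the tool of the study, was run in version 1.42.0 as an alternative. Ratios of 2 members were taken within libraries, 7 in all over 3 comparisons, with exact permutation tests. Levels per kb use the principal transcript of GENCODE M21, and blastn 2.17.0 found 2 members, Bckdha and Oxct1, with 250 or more bases at 95% identity in another gene's transcript, both opposite-strand neighbours. All members were named. Of each related list, the 2 genes that changed most with MIZ in each direction were named where they passed the threshold and reached a mean of 5 CPM in any group, and every gene of a count of 5 or fewer could be added. Slc7a5, Hlcs, Btd, Slc5a6 and the marker genes named were chosen after their values were seen. A gene that this rule names is not reported here. The members and lists were chosen with earlier results of these data known. Of the lipoate list Hsd17b8 was not matched, and Cblif of the cobalamin list was not tested. The fit was tested on simulated data. Other normalizations, filters, a replicate block, leaving out each library and other settings were tried. Plots were made in Python 3.11.15 with matplotlib 3.10.9.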

Additional observations from a re-analysis of the deposited data

How the results depend on the processing

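With MIZ against vehicle, all 29 members kept their direction and their side of the threshold under the 15 alternatives run. Library totals in place of TMM moved the median of all genes from 0.02 to 0.16 with MIZ against vehicle and from -0.08 to -0.25 with vehicle against undifferentiated cells. Under library totals Bcat1 was called lower with vehicle than in undifferentiated cells, which made 1 member lower, and Bcat2 changed direction between MIZ and undifferentiated cells (-0.0034) without passing the test. Without vehicle replicate 1, Bcat1 was also called lower, so the count of lower members ranged from 0 to 1 when 1 library was left out. Between MIZ and undifferentiated cells 25 of the 29 members always kept their call, the others being Bcat2, Bckdk (higher with DESeq2 or its size factors), Ppm1k (lower in 8 settings) and Hsd17b10. Without mitochondrially encoded genes in the total, the members took 0.446% of counts with vehicle. Same-numbered libraries did not deviate together (correlations from -0.045 to 0.063). Libraries of 1 animal could also deviate little together, so whether the numbers pair them stays unknown. With the replicate block 7 members in place of 6 were lower with MIZ than in undifferentiated cells (Ppm1k, -0.17), with no other change of a member's call. The 21 differences between groups in the ratios of 2 members kept their direction with 0.5 counts added and without each library in turn (scaling by length cancels from them). How calls depend on depth was not tested, and 3 libraries a group cannot give an exact permutation p below 0.1.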
